A study of Arabidopsis thaliana with 64 samples.

Results

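The enzymes of jasmonate synthesis in Arabidopsis thaliana are described here across the 32 groups of inbred parents, hybrids and hybrid-derived lines. The genes were picked by name from the synthesis route and found by identifier in the deposited count tables, 10 of 33321 gene rows: LOX2 (AT3G45140), LOX3 (AT1G17420), LOX4 (AT1G72520), AOS (AT5G42650), AOC1 (AT3G25760), AOC2 (AT3G25770), AOC3 (AT3G25780), OPR3 (AT2G06050), JMT (AT1G19640) and JAR1 (AT2G46370). All 10 passed the filter on low counts at both ages.

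Jasmonates are lipid hormones of wounding, defence against chewing insects and necrotrophic fungi, stamen maturation and restraint of growth. In the chloroplast, 13-lipoxygenases (LOX2, LOX3, LOX4) oxygenate linolenic acid, allene oxide synthase (AOS) turns the product into an unstable epoxide, and allene oxide cyclases (AOC1, AOC2, AOC3) close it into the ring of 12-oxophytodienoic acid (OPDA). In the peroxisome, OPDA reductase 3 (OPR3) reduces the ring before beta-oxidation shortens the chain to jasmonic acid. JAR1 joins jasmonic acid to isoleucine, which gives the hormone that the receptor COI1 binds, and JMT methylates jasmonic acid to the volatile methyl jasmonate. Many of these genes are themselves induced by jasmonate in wounded leaves.

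Total RNA was sequenced from pools of 5 untreated plants, 2 pools per group, 64 libraries in all. The F1 hybrids C24xLer and LerxC24 were made by hand pollination between the inbred accessions Landsberg erecta (Ler) and C24. L1-1, L1-2, L2-1, L2-2, L3-1, L3-2, L4-1 and L4-2 are F4 lines descended from the hybrids and called hybrid mimics by the submitters, and S1-1 and S2-1 are 2 other F4 lines. Batch 2 held LerxC24, the L3 and L4 lines and Ler and C24 pools C and D, and batch 1 held C24xLer, the L1 and L2 lines and Ler and C24 pools A and B. Seedlings 15 days after sowing (DAS) were harvested as whole aerial tissue from sucrose plates, under different light tubes in the 2 batches. At 28 DAS the 4 largest leaves were taken from plants grown on in soil. S1-1, S2-1 and the 5 smallest Ler and C24 seedlings of a population were sampled at 15 DAS only, and the batch of each S line is not resolved by the labels. All plants had 16 h of light and 8 h of dark. P-values below measure the spread between pools of 5 plants and not between single plants, and in bulk RNA fewer cells of a type cannot be told apart from less RNA per cell. Where lines, hybrids or batches are averaged, standard errors and p-values leave out the spread between them.

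Libraries held 40347313 to 256721442 counted reads at 28 DAS (median 83406631) and 36324848 to 88844771 at 15 DAS (median 78727350). Values are CPM, counts scaled to the size of the library, with the libraries of one age scaled to each other unless both ages are compared. The Ler pools A and B of batch 1 at 15 DAS carried 16 transcripts otherwise seen in C24, at 32.4% and 18.3% of the C24 level, against 0.46% and 0.42% in Ler pools C and D, so results that rest on them were recomputed with the smallest Ler seedlings instead (0.492% and 0.519% of the C24 level). This changed no call in the comparisons within 15 DAS or between ages within Ler. The smallest C24 pool B and the C24 pool B of batch 1 differed by 2.05 times the sampling noise, against 4.82 times for the next closest pair. One 28 DAS library of L4-2 (pool B) is described by its tissue label as 15-day tissue. It was counted at 28 DAS, as its title says. In every 28 DAS library, this one included, the shoot meristem marker STM was at most 0.190 CPM and KNAT1 at most 0.185 CPM. At 15 DAS the lowest levels of STM and KNAT1 were 4.15 and 5.96 CPM. Summed levels of the flower organ markers were 4.11 to 13.5 CPM at 28 DAS and 12.02 to 57.1 CPM at 15 DAS, those of the root markers 1.35 to 3.27 and 6.46 to 28.3 CPM, those of the shoot meristem markers 36.7 to 95.5 and 75.5 to 156 CPM, those of the senescence markers 6.99 to 304 and 20.3 to 251 CPM, and those of the mature leaf markers 24110 to 58477 and 20763 to 35442 CPM. Single genes carried some sums at 28 DAS. CLV1 alone had 36.6 to 95.2 CPM of the shoot meristem sum. Of the senescence markers, SAG13 reached 256 CPM and SAG29 85.3 CPM, while SAG12 was at 0 in 24 libraries.

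The 10 genes spanned more than 2 orders of magnitude in transcript level per kilobase of exon. At 28 DAS the median over the 14 groups was 1053 CPM per kb for LOX2, 308 for AOC2, 226 for AOS, 60.1 for AOC1, 58.0 for OPR3, 22.4 for JAR1, 11.2 for LOX3, 7.63 for AOC3, 7.46 for LOX4 and 6.87 for JMT. At 15 DAS the median over the 18 groups was 172 CPM per kb for LOX2, 87.7 for AOC2, 40.2 for AOS, 32.7 for AOC1, 26.2 for OPR3, 20.5 for JAR1, 5.32 for LOX3, 4.95 for LOX4, 4.58 for AOC3 and 1.29 for JMT. LOX2, the lipoxygenase of the bulk of leaf OPDA, led at both ages, and JMT was lowest at both. Within one age the genes differed in how far apart the groups lay. The highest group mean was 13.4 times the lowest for JMT at 28 DAS, 12.4 times for LOX4 at 15 DAS and 8.44 times for LOX3 at 15 DAS, but 1.74 times at 28 DAS and 1.42 times at 15 DAS for JAR1.

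LOX2 (chr3:16525245-16529352, plus strand, TAIR10.1) overlaps no other annotated gene, as does each of the other 9. At 28 DAS its group means ran from 5911 CPM in L1-1, 5380 in L1-2 and 5030 in C24xLer down to 2131 in L3-1 and 1784 in C24 of batch 2. At 15 DAS they ran from 1154 CPM in the smallest C24 seedlings, 1071 in C24 of batch 1 and 1047 in S1-1 down to 160 in LerxC24 and 148 in L4-2. Pools of groups next to each other in this order often overlapped: at 28 DAS L1-1 had 6589 and 5234 CPM and L1-2 had 6473 and 4287 CPM. JAR1, the conjugating enzyme, was the flattest of the 10, at 42.2 to 89.5 CPM in the 28 libraries at 28 DAS and 39.6 to 69.6 CPM in the 36 libraries at 15 DAS. AOC2 group means at 28 DAS ran from 746 CPM in L1-1 to 163 CPM in L3-1, with all 7 groups of batch 1 above all 7 of batch 2. AOC1 followed another order, with LerxC24 highest at 135 CPM and Ler of batch 1 lowest at 30.1 CPM.

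**Figure D1:**
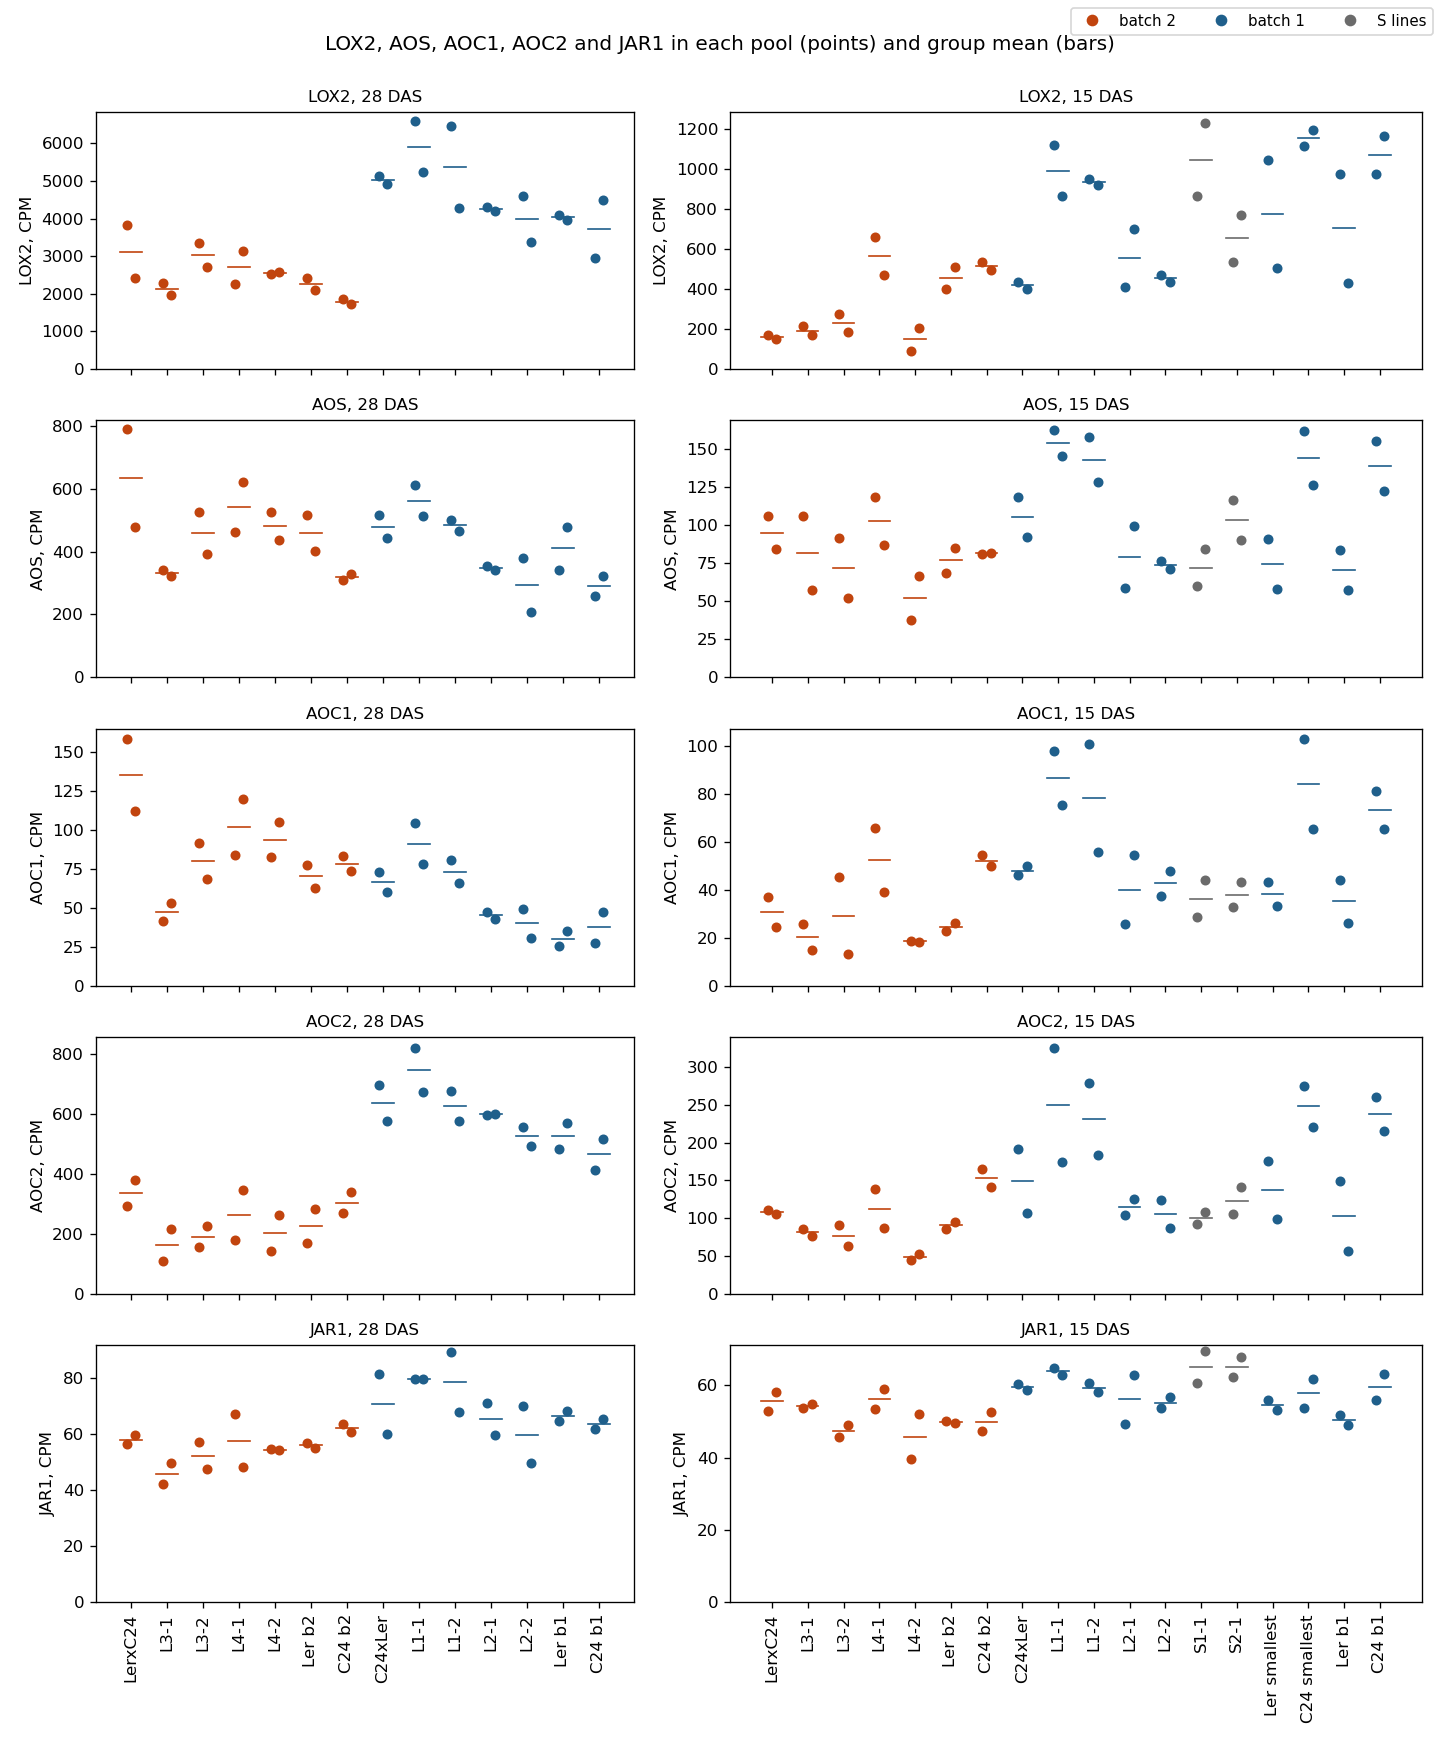
CPM of LOX2, AOS, AOC1, AOC2 and JAR1 (rows) in each pool (points) and the mean of each group (bars) at 28 DAS (left) and 15 DAS (right), batch 2 left of batch 1, coloured by batch with the S lines in grey. LOX2 spans 1717 to 6589 CPM at 28 DAS and 91.9 to 1228 CPM at 15 DAS, and the AOC2 pools of batch 2 (111 to 379 CPM) lie below those of batch 1 (413 to 820 CPM) at 28 DAS.

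The 300 bases before the annotated start of 5 of the genes are shown because these genes carry the results: LOX2 and AOS are, with JMT, among the genes with the largest age differences, LOX3 has the largest swings between pools with LOX4, AOC3 and OPR3, and AOC1 and AOC2 are neighbours that part between batches. Sequences are from RefSeq, build TAIR10.1, written 5′ to 3′ on the strand of the gene. In LOX2, LOX3 and AOS, capitals mark the motifs found among those searched on both strands. In AOC1 and AOC2, capitals mark the longest run of bases that both share.
LOX2 (chr3:16524945-16525244, plus strand): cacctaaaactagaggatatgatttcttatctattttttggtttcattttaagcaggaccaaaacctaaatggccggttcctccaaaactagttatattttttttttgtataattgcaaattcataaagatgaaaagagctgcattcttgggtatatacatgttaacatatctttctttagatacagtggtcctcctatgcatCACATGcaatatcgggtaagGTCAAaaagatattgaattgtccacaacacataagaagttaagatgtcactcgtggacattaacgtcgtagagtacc
LOX3 (chr1:5977023-5977322, plus strand): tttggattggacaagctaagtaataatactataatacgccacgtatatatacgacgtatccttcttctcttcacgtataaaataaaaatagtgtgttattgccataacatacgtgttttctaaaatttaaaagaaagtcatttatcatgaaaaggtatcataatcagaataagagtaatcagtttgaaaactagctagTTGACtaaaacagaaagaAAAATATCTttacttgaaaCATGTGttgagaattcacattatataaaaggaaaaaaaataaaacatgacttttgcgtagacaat
AOS (chr5:17099596-17099895, minus strand): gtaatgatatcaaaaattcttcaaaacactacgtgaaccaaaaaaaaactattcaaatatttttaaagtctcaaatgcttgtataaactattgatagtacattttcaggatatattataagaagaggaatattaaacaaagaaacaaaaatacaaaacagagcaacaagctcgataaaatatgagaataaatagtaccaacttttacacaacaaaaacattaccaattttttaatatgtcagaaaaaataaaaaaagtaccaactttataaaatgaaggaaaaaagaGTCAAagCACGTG
AOC1 (chr3:9403479-9403778, plus strand): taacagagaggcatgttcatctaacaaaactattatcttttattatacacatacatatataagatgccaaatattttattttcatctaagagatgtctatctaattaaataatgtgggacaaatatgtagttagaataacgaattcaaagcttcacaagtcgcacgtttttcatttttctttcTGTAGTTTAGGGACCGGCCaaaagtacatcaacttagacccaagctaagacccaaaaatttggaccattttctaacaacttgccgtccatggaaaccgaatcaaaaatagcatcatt
AOC2 (chr3:9406369-9406668, plus strand): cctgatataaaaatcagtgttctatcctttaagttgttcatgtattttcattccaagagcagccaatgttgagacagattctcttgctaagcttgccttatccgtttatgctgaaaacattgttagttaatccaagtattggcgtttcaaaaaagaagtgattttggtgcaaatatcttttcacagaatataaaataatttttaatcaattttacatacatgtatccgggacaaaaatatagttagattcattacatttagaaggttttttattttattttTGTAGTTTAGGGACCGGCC

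The motifs searched were the G-box CACGTG and its variant CACATG, which MYC factors bind, the W-box core TTGAC, the GCC box GCCGCC and the evening element AAAATATCT. AOS alone held CACGTG, 6 bases before its start, a word that 7.09% of 27443 promoters hold. CACATG stood 97 bases before LOX2, 65 before LOX3 and 138 before JAR1, against 13.1% of all promoters. TTGAC was found in 6 of 10 (LOX2, LOX3, LOX4, AOS, AOC3 and OPR3), a word that 50.4% of promoters hold. AAAATATCT, in 2.79% of promoters, stood 84 bases before LOX3, and GCCGCC, in 2.26%, was in none of these windows. Overlap between words was not seen in the 5 windows printed. The shared run TGTAGTTTAGGGACCGGCC, 19 bases long, lies 117 bases before AOC1 and 19 before AOC2 and was in no other of the 27443 promoters. AOC1, AOC2 and AOC3 lie side by side on chromosome 3, and the coding sequences of AOC1 and AOC2 were 90.29% identical. Those of LOX3 and LOX4 were 81.07% identical. No 100-base window was shared between paralogs, but how multiply mapping reads were counted is not given in the sources used here.

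Expanded leaves at 28 DAS were compared with seedlings at 15 DAS in each kind of material. Nearly the whole route was higher at 28 DAS: 9 of 10 genes were called higher in the L lines, where 38.3% of all tested genes were, 9 of 10 in the F1 hybrids (31% of genes), 8 of 10 in Ler (31.4%) and 9 of 10 in C24 (31.8%). None was called lower, where 45.3%, 36.1%, 37% and 36.9% of genes were in L lines, F1, Ler and C24. The median log2 fold change of the 10 was 1.45 in L lines, 1.95 in F1, 2.00 in Ler and 1.83 in C24, beside a median over all tested genes of -0.08 in L lines and -0.07 in the other materials. Those not called were LOX4 in the L lines, F1 and Ler, AOC3 in Ler and AOC1 in C24. Age, sampled tissue, medium and time of harvest changed together between the 2 sets and cannot be told apart. Fold changes between ages also rest on the scale shared by both ages. LOX2 in pool A of L1-1 had 8583 CPM on it at 28 DAS, against 6589 CPM with that age scaled alone. At 15 DAS the same pool letter had 919 against 1119 CPM. Marker lists moved too: in L lines, F1, Ler and C24, 4, 4, 3 and 3 of 5 mature leaf markers and 5, 3, 3 and 6 of 6 touch and handling genes were called higher at 28 DAS, while 6, 4, 3 and 6 of 6 root markers and 5, 4, 4 and 4 of 5 shoot meristem markers were called lower. Their part in the 10 genes' values was not tested.

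On the scale shared by both ages, LOX2 in the L lines ran from 2573 through a median of 4411 to 8583 CPM at 28 DAS and from 72.0 through 367 to 919 CPM at 15 DAS. In the F1 hybrids it had 3190, 5716 and 6672 CPM (lowest, median, highest of 4 pools) at 28 DAS, against 119, 232 and 356 CPM at 15 DAS. Ler pools had 2722, 4191 and 5352 CPM at 28 DAS, against 323, 379 and 799 CPM at 15 DAS, and C24 pools 2243, 3168 and 5918 CPM, against 399, 610 and 959 CPM. No 28 DAS pool overlapped a 15 DAS pool of the same material. The log2 fold change was 3.78 ± 0.14 in the L lines, 4.63 ± 0.28 in F1, 3.11 ± 0.26 in Ler and 2.49 ± 0.26 in C24 (SE, edgeR quasi-likelihood test, adjusted p 2.28e-24, 2.02e-16, 1.08e-12 and 1.25e-10).

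AOS, JMT and JAR1 also had no overlap between ages in any of the 4 materials. How many of all tested genes separate in this way was not counted, so it cannot be read as particular to these enzymes. Of all tested genes 38.3% were called higher at 28 DAS in L lines, 31% in F1, 31.4% in Ler and 31.8% in C24. AOS, the enzyme that commits the lipid to the route, had 276 to 809 CPM in L lines at 28 DAS against 29.3 to 134 CPM at 15 DAS, 580 to 1028 against 68.1 to 96.6 CPM in F1, 447 to 672 against 46.4 to 68.8 CPM in Ler, and 337 to 428 against 65.7 to 125 CPM in C24. Its log2 fold changes were 2.95 ± 0.12, 3.15 ± 0.24, 3.25 ± 0.24 and 2.21 ± 0.23 in L lines, F1, Ler and C24 (adjusted p from edgeR at most 2.68e-10). JMT had 7.62 to 70.8 against 0.670 to 2.72 CPM in L lines, 7.74 to 28.1 against 0.402 to 1.64 CPM in F1, 13.3 to 79.2 against 1.54 to 3.84 CPM in Ler, and 3.30 to 9.76 against 0.637 to 1.90 CPM in C24. Its log2 fold changes were 3.88 ± 0.19, 3.91 ± 0.40, 3.80 ± 0.38 and 2.24 ± 0.38 (edgeR, adjusted p at most 2.59e-06). These average batches that lay far apart for JMT. Within batch 1 and batch 2 the log2 difference was 2.45 and 5.24 in L lines and 2.70 and 5.03 in F1. It was 2.65 and 4.79 in Ler and 1.12 and 3.19 in C24. JAR1 rose by less than AOS and JMT, by 0.85 ± 0.06, 0.85 ± 0.11, 0.98 ± 0.11 and 0.91 ± 0.11 on the log2 scale (edgeR, adjusted p at most 3.65e-08). The size of this rise depends on the scaling between ages. With each age scaled alone, the JAR1 median over all libraries was 60.4 CPM at 28 DAS and 55.3 CPM at 15 DAS.

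The cyclases and the remaining lipoxygenases were less even. AOC2 rose by 2.35, 2.55, 2.53 and 1.67 on the log2 scale in L lines, F1, Ler and C24, and AOC1 by 1.45, 1.99 and 1.34 in the first 3 of these. Within batch 1 and batch 2 AOC1 rose by 0.72 and 2.28 in L lines, 1.14 and 2.85 in F1, and 0.50 and 2.21 in Ler. In C24, AOC1 ran from 36.1 to 110.2 CPM at 28 DAS and from 40.1 to 65.4 CPM at 15 DAS, which overlap (log2 fold change 0.51, adjusted p = 0.105, or 0.0267 with only the groups compared in the edgeR fit). Within batch 1 alone, AOC1 in C24 had the opposite sign, -0.32. OPR3, the peroxisomal reductase, rose by 1.46 to 1.87 and LOX3 by 1.22 to 2.13 over the 4 materials. OPR3 within batch 1 and batch 2 rose by 2.03 and 1.01 in L lines, 2.52 and 1.47 in F1, 2.07 and 1.67 in Ler, and 2.22 and 1.10 in C24. AOC3 was called in L lines, F1 and C24. Within batch 1 and batch 2 AOC3 rose by 1.95 and 0.61 in L lines, 2.88 and 1.59 in F1, 1.19 and 0.34 in Ler, and 2.78 and 1.49 in C24. LOX3 within batch 1 and batch 2 rose by 2.00 and 0.66 in L lines and by 2.84 and 0.39 in F1. The values were 2.55 and 1.68 in Ler and 2.40 and 1.53 in C24. LOX4, a paralog of LOX3, was called in C24 (1.45), with 0.41, 0.54 and 0.83 in L lines, F1 and Ler without a call, and the materials were not compared by a test. In Ler the LOX4 pools at 28 DAS (16.1 to 29.2 CPM) lay above those at 15 DAS (7.55 to 15.3 CPM), and a fit of only the groups compared called it (adjusted p = 0.0146). In F1 LOX4 was called without pool A of LerxC24 at 15 DAS (1.92, edgeR adjusted p = 0.0131). Within batch 2 the sign of LOX4 was negative in F1 (-0.34) and in L lines (-0.71). The LOX3 call in F1 was lost in 6 fits that left out one library (adjusted p 0.0685 to 0.113).

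**Figure D2:**
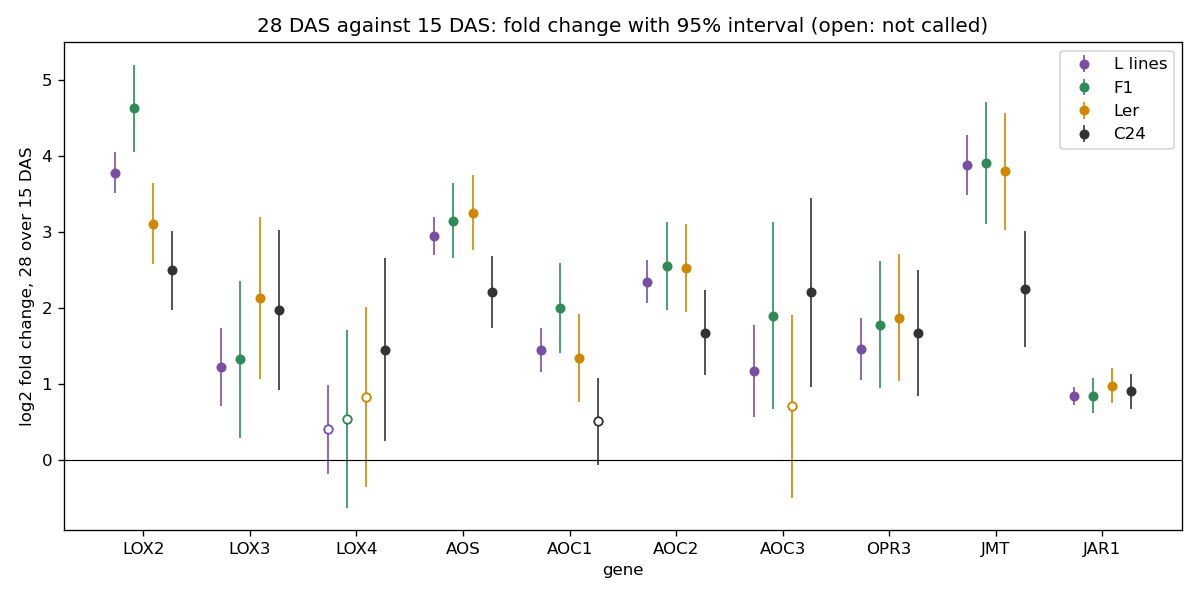
Log2 fold change of 28 over 15 DAS (vertical axis) of each gene in L lines, F1, Ler and C24, with 95% intervals, open where not called. Every point lies above 0, from 0.41 for LOX4 in L lines to 4.63 for LOX2 in F1, and JAR1 has the narrowest spread over materials (0.85 to 0.98).

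The rest of the pathway moved in both directions between ages, and the counts below stand beside 38.3% of all genes higher and 45.3% lower in L lines, 31% and 36.1% in F1, 31.4% and 37% in Ler, and 31.8% and 36.9% in C24. Of 14 other synthesis genes, 11 were called higher and 3 lower in L lines, 11 and 3 in F1, 8 and 3 in Ler and 9 and 2 in C24. The desaturases FAD7 and FAD8, which supply linolenic acid in the chloroplast, the CoA ligase OPCL1, which activates the product of OPR3 for beta-oxidation, and the acyl-CoA oxidase ACX1 were among the higher ones, with log2 fold changes in F1 of 1.13 for FAD7, 1.99 for FAD8, 1.62 for OPCL1 and 1.33 for ACX1. The lipase gene DAD1, known for its role in anthers, fell by 2.78, 2.81, 2.82 and 2.67 in L lines, F1, Ler and C24, and its relative DGL fell by 1.14, 1.55, 1.22 and 0.72. Of 16 genes of perception and repression, 14, 11, 10 and 10 were called higher in L lines, F1, Ler and C24, and 1 was lower in each, the repressor gene JAZ4. JAZ9, a repressor gene, rose by 2.86, 2.88, 2.83 and 2.74, and MYC2, the main transcription factor of the response, by 1.69, 1.72, 1.93 and 1.95. Of 10 genes of hormone turnover, 5, 4, 4 and 3 were higher and 3, 3, 3 and 4 lower, close to the shares of all genes. The hydroxylase genes CYP94B1 and CYP94C1, which oxidise the isoleucine conjugate, were called lower in all 4 materials, and the amidohydrolase gene IAR3 was called higher. Of 5 neighbouring lipoxygenases, reductases and lyases, HPL1, whose product draws on the same lipid hydroperoxides, rose by 3.33, 3.38, 2.38 and 1.86, and OPR2 fell by 0.74, 0.58, 0.58 and 1.25.

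Ler was compared with C24 in each batch and age. In the edgeR fit of all groups JMT was the only one of the 10 called, in 3 of 4 comparisons, each time higher in Ler. At 28 DAS in batch 1 JMT had 10.2 and 18.6 CPM in the Ler pools, against 2.52 and 3.79 CPM in the C24 pools. In batch 2 at 28 DAS it had 60.8 and 23.9 CPM in Ler, against 7.35 and 3.04 CPM in C24. At 15 DAS in batch 2 it had 1.90 and 2.62 CPM in Ler, against 0.788 and 0.906 CPM in C24. In each of these comparisons both Ler pools lay above both C24 pools.

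The log2 fold change of JMT was 2.19 ± 0.61 in batch 1 at 28 DAS (edgeR quasi-likelihood test, adjusted p = 0.0215; 13.5% of genes were called), 3.02 ± 0.62 in batch 2 at 28 DAS (adjusted p = 0.00282; 13.1% called) and 1.40 ± 0.39 in batch 2 at 15 DAS (adjusted p = 0.0159; 18.8% called). In batch 1 at 15 DAS JMT had 4.69 and 2.67 CPM in Ler, against 2.26 and 2.30 CPM in C24, a difference of 0.69 (adjusted p = 0.329), and edgeR called 0 of 10 there, where 6.58% of genes were called. Of the 10, AOS, AOC1 and AOC2 (3 genes) reached an unadjusted p below 0.05, and AOS and AOC2 (2 genes) were called by DESeq2. With the smallest Ler seedlings the JMT difference was 0.44 (adjusted p = 0.535). The Ler minus C24 difference did not pass a test between batches for any of the 10 at either age (edgeR, 0 of 10, where 0.0144% of genes passed at 28 DAS and 1.12% at 15 DAS; DESeq2 0 at both; unadjusted p below 0.05 for LOX4 at 28 DAS). The calls rested on few pools: at 15 DAS in batch 2 the adjusted p was 0.109 without C24 C, 0.0747 without C24 D and 0.103 without Ler D, at 28 DAS in batch 1 it was 0.192 without C24 A, 0.0691 without C24 B and 0.177 without Ler B, and at 28 DAS in batch 2 it was 0.0550 without C24 D.

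**Figure D3:**
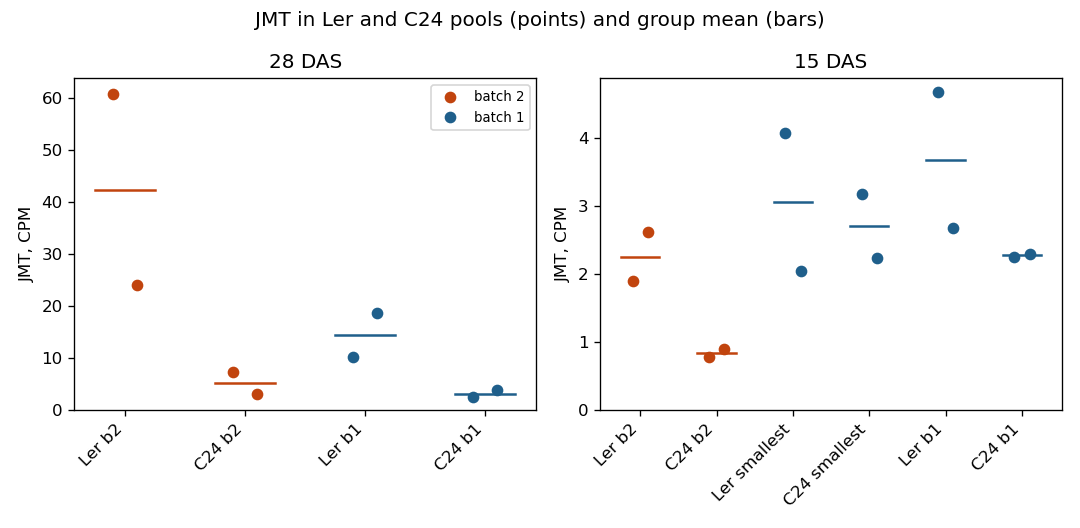
CPM of JMT in each Ler and C24 pool (points) and the group mean (bars) at 28 DAS (left) and 15 DAS (right), coloured by batch. At 28 DAS all 4 Ler pools (10.2 to 60.8 CPM) lie above all 4 C24 pools (2.52 to 7.35 CPM), while the smallest seedlings of the 2 accessions overlap.

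The other 9 genes were not called between the accessions in that fit, but some passed in others. AOC2 had 150 and 56.3 CPM in Ler of batch 1 at 15 DAS, against 261 and 215 CPM in C24, a log2 fold change of -1.21 ± 0.39 (adjusted p = 0.0677), or -0.79 with the smallest Ler seedlings (adjusted p = 0.162), and DESeq2 called it (adjusted p = 0.0238). In batch 2 it had 85.7 and 95.3 CPM in Ler, against 165 and 141 CPM in C24 (-0.76, adjusted p = 0.184), and edgeR called it with only the groups compared in the fit (adjusted p = 0.00792), as it did AOC1 (-1.09, adjusted p = 0.00152) and, at 28 DAS in batch 1, LOX4 (-1.12, adjusted p = 0.00871). At 15 DAS both AOC2 pools of Ler were below both of C24 in each batch. With the letter as a block edgeR called AOC2 at 15 DAS in batch 1 (-1.32, adjusted p = 0.00274) and in batch 2 (-0.75, adjusted p = 0.0437). Letters were not taken as pairing in either, with 34 of 36 and 13 of 21 pairs of groups deviating together. Among pathway genes called at 28 DAS, 4 turnover genes were higher in Ler than in C24 in batch 1. They included JRG21 (log2 fold change 4.01), which encodes a jasmonate oxidase, the sulfotransferase gene ST2A (2.77) and the amidohydrolase gene ILL6 (1.42). In batch 2, ILL6 was again higher in Ler (1.47), with JAZ9 (1.82). LOX1, a 9-lipoxygenase, was higher in Ler in both batches (0.90 in batch 2, 0.81 in batch 1), and HPL1 was lower in Ler in batch 1 (-1.86). Between Ler and C24 at 28 DAS, 13.5% of all tested genes were called in batch 1 and 13.1% in batch 2, higher and lower together. Whether pathway genes were called more often than all genes was not tested, so the genes named are examples only. Among the 5 shoot meristem markers at 28 DAS, CLV1 had 36.6 to 95.2 CPM, while STM, WUS, CLV3 and KNAT1 reached at most 0.314 CPM. The summed level of the 5, nearly all from CLV1, was 75.2 and 60.6 CPM in Ler against 38.1 and 42.0 CPM in C24 in batch 1, and 95.5 and 85.6 CPM against 65.6 and 56.7 CPM in batch 2. That of the 6 touch and handling genes was lower in Ler, with 211 and 187 CPM against 971 and 580 CPM in batch 1 and 173 and 133 CPM against 289 and 448 CPM in batch 2, and the part of either list in the JMT difference was not tested.

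LOX2 was lower in LerxC24 than in its parents at 15 DAS. LerxC24 had 171 and 148 CPM, against 399 and 511 CPM in Ler and 533 and 494 CPM in C24 of its batch, with both hybrid pools below all 4 parental pools. The fold change was -1.68 ± 0.39 on the log2 scale against C24 (edgeR, adjusted p = 0.0174; 2.97% of genes were called) and -1.51 ± 0.39 against Ler (adjusted p = 0.0282; 4.25% called). Either call was lost whichever of the 4 pools was left out (adjusted p 0.0769 to 0.145 against C24 and 0.0633 to 0.167 against Ler), with fold changes between -1.79 and -1.32. The reciprocal hybrid C24xLer had 436 and 399 CPM, against 975 and 430 CPM in Ler and 977 and 1164 CPM in C24 of batch 1, lying below both C24 pools but overlapping Ler (-1.36 ± 0.39 against C24, edgeR adjusted p = 0.0814, DESeq2 adjusted p = 0.0169; -0.75 against Ler, adjusted p = 0.697, or -0.89 against the smallest Ler seedlings, adjusted p = 0.202). For C24xLer edgeR called 0 of 10 genes against C24 (1.88% of genes; LOX2 at an unadjusted p below 0.05 and in DESeq2) and 0 of 10 against Ler (1% of genes; JMT at an unadjusted p below 0.05, DESeq2 0). Both comparisons of a hybrid with its parents use the same hybrid pools.

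Set against libraries averaged in silico from one Ler and one C24 pool (mid-parent), 0 of 10 genes were called in edgeR for either hybrid at either age, with 1 and 3 genes at an unadjusted p below 0.05 at 28 DAS and 2 and 3 at 15 DAS (C24xLer, then LerxC24). Of all genes 0.0144% and 0.0288% were called at 28 DAS and 0.206% and 0.0166% at 15 DAS, so these comparisons called almost nothing. LOX2 in LerxC24 had 171 and 148 CPM against mid-parent levels of 463 and 499 CPM at 15 DAS (-1.59 ± 0.36, edgeR adjusted p = 0.182, DESeq2 adjusted p = 0.00464, the 1 gene of 10 that DESeq2 called in any of the 4). The distance from the mid-parent did not pass a test between the hybrids for any of the 10 (edgeR, 0 of 10 at both ages, where 0% of genes passed at 28 DAS and 0.0499% at 15 DAS; 0 at an unadjusted p below 0.05 and 0 in DESeq2). JMT in LerxC24 had 0.816 and 0.4997 CPM at 15 DAS, against 1.90 and 2.62 CPM in Ler and 0.788 and 0.906 CPM in C24. It fell by 1.73 ± 0.40 against Ler (edgeR, adjusted p = 0.0144) and was not separated from C24 (-0.33, adjusted p = 0.774). That call was lost without Ler D (adjusted p = 0.111), without LerxC24 A (0.0548) and without LerxC24 B (0.123).

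LOX3 and LOX4 in LerxC24 seedlings were carried by one pool. LOX3 had 82.9 and 12.2 CPM in LerxC24, against 8.71 and 17.5 CPM in Ler and 13.4 and 13.9 CPM in C24. LOX4 had 92.9 and 7.35 CPM in LerxC24, against 12.2 and 19.2 CPM in Ler and 12.1 and 8.11 CPM in C24. Pool A lay above all parental pools and pool B within or below them, and neither gene passed against C24 (LOX3 1.80, adjusted p = 0.303; LOX4 2.31, adjusted p = 0.234).

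At 28 DAS both LOX2 pools of each hybrid lay above all 4 pools of its parents. LerxC24 had 3820 and 2425 CPM, against 2413 and 2094 CPM in Ler and 1851 and 1717 CPM in C24, and C24xLer had 5144 and 4916 CPM, against 4093 and 3970 CPM in Ler and 2963 and 4488 CPM in C24. The lowest LerxC24 pool was above the highest parental pool by a small margin. The difference of LerxC24 from the mean of its parents was 0.64 at 28 DAS and -1.60 at 15 DAS, a difference between ages of 2.24 ± 0.43 (edgeR, adjusted p = 0.0134, where 0.105% of genes were called). This contrast was added after the values were seen. Leaving out one library gave 1.90 to 2.57, with adjusted p up to 0.182 and the call lost in 10 of these fits. In C24xLer the differences were 0.37 and -1.05, and their difference of 1.42 ± 0.42 was not called (adjusted p = 0.323; 0 of 10 called by edgeR and DESeq2, 2 with an unadjusted p below 0.05, where 0.191% of genes were called).

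AOC1 was the gene called in a hybrid at 28 DAS by edgeR without a block. C24xLer had 73.0 and 59.9 CPM, against 25.4 and 34.8 CPM in Ler and 27.6 and 47.4 CPM in C24, and both hybrid pools lay above all parental pools. The log2 fold change was 1.14 ± 0.29 against Ler (edgeR, adjusted p = 0.0487; 2.35% of genes called, 1 of 10 here) and 0.83 against C24 (adjusted p = 0.22; 1.76% called, 0 of 10 here, 2 at an unadjusted p below 0.05 and 0 in DESeq2). The call against Ler was lost whichever of the 4 pools was left out (adjusted p 0.123 to 0.357). In LerxC24, AOC1 had 158 and 112 CPM, against 77.8 and 62.5 CPM in Ler and 83.0 and 73.9 CPM in C24, again above every parental pool, without a call (0.95 against Ler, adjusted p = 0.144; 0.79 against C24, adjusted p = 0.184).

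LerxC24 at 28 DAS had 0 of 10 genes called against C24 by edgeR (3.92% of genes called), with LOX2, AOS, AOC1 and JMT at an unadjusted p below 0.05 and LOX2 and AOS called by DESeq2. AOS had 789 and 477 CPM in LerxC24, against 515 and 403 CPM in Ler and 308 and 327 CPM in C24. Against Ler 0 of 10 were called (1.8% of genes called; AOC1 and JMT at an unadjusted p below 0.05, DESeq2 0). The pools of this batch and age pair by letter, and with the letter as a block 3 genes passed against C24: JMT (1.44, adjusted p = 0.000358), AOS (0.97, adjusted p = 0.0268) and LOX2 (0.79, adjusted p = 0.0493). JMT in LerxC24 had 21.6 and 7.56 CPM, against 60.8 and 23.9 CPM in Ler and 7.35 and 3.04 CPM in C24, so within either letter the hybrid lay between its parents. With the block JMT was also called lower than Ler (-1.57, adjusted p = 0.00018), which the fit without it did not call (-1.54, adjusted p = 0.291).

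The L lines of batch 2 shared the low LOX2 level of LerxC24 at 15 DAS in part. LOX2 had 215 and 169.6 CPM in L3-1, 274 and 184 CPM in L3-2, 661 and 468 CPM in L4-1 and 91.9 and 204 CPM in L4-2, against mid-parent levels of 463 and 499 CPM. All pools of L3-1, L3-2 and L4-2 were below both mid-parent levels, and those of L4-1 overlapped them. Only L4-2 had calls among the 10 in edgeR: LOX2 (-1.70 ± 0.36, adjusted p = 0.00894) and AOC2 (-1.31 ± 0.35, adjusted p = 0.032), where 5.3% of all genes were called.

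AOC2 in L4-2 had 45.1 and 52.2 CPM, against mid-parent levels of 125 and 118 CPM. The LOX2 call was lost without L4-2 A (-1.25, adjusted p = 0.147) and without mid-parent D (adjusted p = 0.0749), and the AOC2 call in each of the 4 fits that left out a pool (adjusted p 0.0912 to 0.228). For the mean of the 4 lines 0 of 10 genes were called (2.21% of genes called; 3 at an unadjusted p below 0.05; DESeq2 called LOX2), and LOX2 stood at -0.96 ± 0.26 (edgeR adjusted p = 0.0577, DESeq2 adjusted p = 0.0194). L3-1 had 0 calls (2.15% of genes; 3 at an unadjusted p below 0.05, DESeq2 called LOX2 and LOX4), as had L3-2 (1.62%; 2 and 0) and L4-1 (1.96%; 1 and 0). Against LerxC24 itself 0 of 10 were called (1.7%; 1 at an unadjusted p below 0.05, DESeq2 0).

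The L1 and L2 lines of batch 1 did not overlap in LOX2. LOX2 at 15 DAS had 1119 and 864 CPM in L1-1, 950.5 and 918 CPM in L1-2, 410.4 and 699.8 CPM in L2-1 and 470 and 434 CPM in L2-2, against mid-parent levels of 970.0 and 798 CPM. The L1 lines lay near or above the mid-parent and all L2 pools below it, and the L lines of the 2 batches were not compared by a test. EdgeR called 0 of 10 genes for the mean of the 4 lines against the mid-parent (1.32% of genes) and for L1-1 (1.62%), L1-2 (1.59%), L2-1 (1.11%) and L2-2 (1.12%), with LOX2 in L2-2 the one gene at an unadjusted p below 0.05 and 0 calls in DESeq2. Against C24xLer 0 of 10 were called (1.07%; LOX2 at an unadjusted p below 0.05, DESeq2 0).

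At 28 DAS the one call in an L line by edgeR without a block was AOC1 in L1-1. AOC1 had 104 and 78.3 CPM in L1-1, against mid-parent levels of 26.1 and 40.5 CPM, with no overlap. The log2 fold change was 1.45 ± 0.29 (edgeR, adjusted p = 0.0185; 1% of genes called), and the call was lost without L1-1 A (1.23, adjusted p = 0.246) and without mid-parent A (1.17, adjusted p = 0.329). The sister line L1-2 had 80.6 and 65.7 CPM, also above both mid-parent levels (1.13, adjusted p = 0.110; 0 of 10 called by edgeR, 0.879% of genes; AOC1 called by DESeq2). L2-1 and L2-2 had 0 calls (0.119% and 0.573% of genes; 0 and 1 gene at an unadjusted p below 0.05; DESeq2 0), and so had the mean of the 4 lines against the mid-parent (0.774%; AOC1 at an unadjusted p below 0.05 and in DESeq2) and against C24xLer (0.521%; 0 unadjusted, DESeq2 0).

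JMT in the L lines of batch 2 at 28 DAS overlapped Ler. It had 37.6 and 16.2 CPM in L3-1, 54.1 and 22.8 CPM in L3-2, 36.6 and 25.7 CPM in L4-1 and 51.6 and 23.8 CPM in L4-2, against 60.8 and 23.9 CPM in Ler, 21.6 and 7.56 CPM in LerxC24, and 7.35 and 3.04 CPM in C24. In each letter, all 4 lines were above LerxC24. The mean of the lines minus LerxC24 was 1.19 on the log2 scale, not called without the block (adjusted p = 0.456) and called with it (1.28, adjusted p = 0.000297). With the block AOC2 (-0.78, adjusted p = 0.00185) and AOC1 (-0.80, adjusted p = 0.0436) were called lower in the lines than in LerxC24, where the fit without it called 0 of 10 (1.16% of genes; 4 at an unadjusted p below 0.05; DESeq2 called AOC1). AOC2 had 111 and 215 CPM in L3-1, 157 and 225 CPM in L3-2, 179 and 344 CPM in L4-1 and 143 and 263 CPM in L4-2, against 291 and 379 CPM in LerxC24. Every line was below the hybrid within its letter. Against the mid-parent 0 of 10 genes were called for the mean of the 4 lines (1.48%; 0 unadjusted), L3-1 (1.53%; 1), L3-2 (0.915%; 1), L4-1 (0.605%; 1) and L4-2 (1.06%; 0), with 0 in DESeq2 throughout, and the block added AOC2 in L3-1 (-0.74, adjusted p = 0.0161).

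S1-1 and S2-1 were compared with the batch 1 mid-parent at 15 DAS, and edgeR called 0 of 10 genes in either (3.09% and 2.56% of genes were called; 1 and 2 at an unadjusted p below 0.05; DESeq2 called LOX3 in S2-1). LOX3 had 115 and 24.6 CPM in S2-1 and 13.7 and 18.8 CPM in S1-1. Pool A of S2-1 was the one high pool. The smallest Ler seedlings had 0 of 10 called against Ler of batch 1 (1.3% of genes), and the smallest C24 seedlings 0 of 10 against C24 of batch 1 (0%), with 0 genes at an unadjusted p below 0.05 and 0 in DESeq2 in either. LOX2 had 1043 and 503 CPM in the smallest Ler pools against 975 and 430 CPM in the Ler pools, and 1114 and 1193 CPM in the smallest C24 pools against 977 and 1164 CPM in the C24 pools, overlapping in both accessions. The C24 comparison includes the near-identical pair of pools.

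Batch 2 was compared with batch 1 within each accession. At 28 DAS AOC1 was higher in batch 2 in both accessions: it had 77.8 and 62.5 CPM in batch 2 against 25.4 and 34.8 CPM in batch 1 in Ler, and 83.0 and 73.9 CPM against 27.6 and 47.4 CPM in C24. The log2 fold change was 1.22 ± 0.29 in Ler (edgeR, adjusted p = 0.013; 9.15% of genes called) and 1.06 ± 0.29 in C24 (adjusted p = 0.0312; 8.39% called). Its neighbour AOC2 went the other way in Ler, with 169 and 284 CPM in batch 2 against 482 and 569 CPM in batch 1 (-1.21 ± 0.36, adjusted p = 0.0401), and LOX2 fell in C24, with 1851 and 1717 CPM in batch 2 against 2963 and 4488 CPM in batch 1 (-1.06 ± 0.26, adjusted p = 0.017). In all 4 of these the pools of the 2 batches did not overlap. With the letter as a block, 2 more genes passed in each accession. In Ler these were JMT (1.45, adjusted p = 9.13e-05) and LOX2 (-0.84, adjusted p = 0.0188), both also called by DESeq2. In C24 they were AOC2 (-0.62, adjusted p = 0.0196) and OPR3 (-1.22, adjusted p = 0.0277), of which DESeq2 called OPR3. Letters paired pools in batch 2 and not in batch 1 at this age.

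Each of the calls made without the block was lost when some single pools were left out. For Ler the adjusted p of AOC1 was 0.143 without Ler A and 0.105 without Ler C, and that of AOC2 was 0.0899 without Ler A, 0.184 without Ler B and 0.311 without Ler C. For C24 the adjusted p of AOC1 was 0.330 without C24 A, 0.150 without C24 C and 0.0913 without C24 D, and that of LOX2 was 0.185 without C24 B, 0.0849 without C24 C and 0.125 without C24 D. At 15 DAS JMT was lower in batch 2 in C24, with 0.788 and 0.906 CPM against 2.26 and 2.30 CPM (-1.43 ± 0.39, adjusted p = 0.0171; 14.3% of genes called), a call lost whichever of the 4 pools was left out (adjusted p 0.0588 to 0.126). In Ler at 15 DAS edgeR called 0 of 10 genes between batches (18.5% of genes; 0 at an unadjusted p below 0.05; DESeq2 0).

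Among the hybrids and L lines, which are not the same lines in the 2 batches, only AOC2 of these 4 genes separated by batch at 28 DAS, with 111 to 379 CPM in batch 2 and 491 to 820 CPM in batch 1. AOC1 had a median of 87.6 CPM (41.6 to 158) in batch 2 and 62.8 CPM (30.6 to 104) in batch 1. JMT had a median of 24.7 CPM (7.56 to 54.1) in batch 2 and 7.18 CPM (5.86 to 9.39) in batch 1. LOX2 had a median of 2556 CPM (1967 to 3820) in batch 2 and 4754 CPM (3375 to 6589) in batch 1. The last 3 genes overlapped between batches. The clock genes, which mark the time of day at harvest, also differed by batch at 28 DAS. CCA1, a morning gene, TOC1, an evening gene, PRR9, PRR7 and ELF4 did not overlap between batches. Their medians were 371 CPM in batch 2 against 122 CPM in batch 1 for CCA1, 12.8 against 112 CPM for TOC1, and 39.4 against 0.187 CPM for PRR9. For PRR7 they were 219 against 15.8 CPM and for ELF4 1.32 against 29.2 CPM. The morning gene LHY had a median of 83.7 CPM in batch 2 and 15.1 CPM in batch 1 but overlapped (12.6 to 499 CPM in batch 2, 12.9 to 31.7 CPM in batch 1), as did GI (21.8 to 90.5 and 2.88 to 23.4 CPM). At 15 DAS TOC1 also did not overlap between batches (249 to 399 CPM in batch 2, 59.6 to 183 CPM in batch 1), while the other clock genes did.

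Within batch 2 at 28 DAS the letters also differed. LHY was higher in the first-lettered pool (A or C) in 7 of 7 groups, by a median of 9.52 times, and GI was lower there in 7 of 7, at 0.395 times. JMT was higher in the first-lettered pool in 7 of 7 groups, by a median of 2.37 times (1.42 to 2.85), against 1 of 7 groups in batch 1, and AOC2 was lower there in 7 of 7 groups, at a median of 0.595 times (0.515 to 0.792). Letters also differed in the other sets. In batch 1 at 15 DAS GI, PRR7 and PRR9 were higher in the first-lettered pool in 9 of 9 groups, by medians of 5.62, 2.46 and 7.501 times, and AOS and AOC2 were higher there in 8 of 9 groups, by medians of 1.27 and 1.52 times. PRR7 was higher in the first-lettered pool in 7 of 7 groups in batch 1 at 28 DAS and in batch 2 at 15 DAS as well (medians 2.34 and 1.35 times). Whether harvest time has a part in the JMT, AOS, AOC1, AOC2 or LOX2 values was not tested, and batch, light tubes and clock phase cannot be told apart between the batches.

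**Figure D4:**
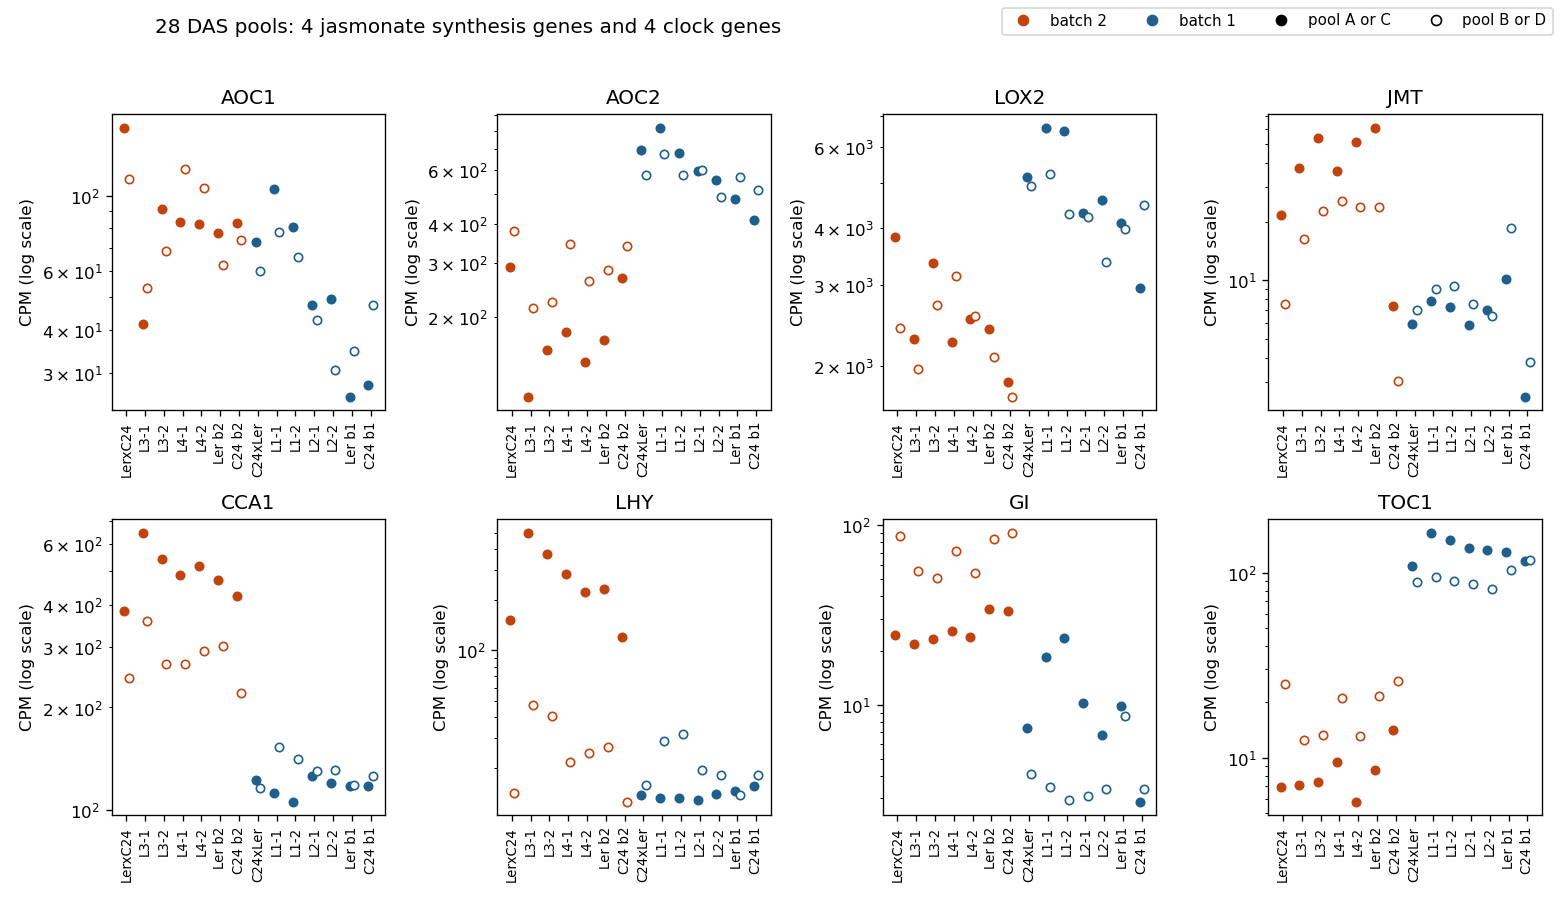
CPM (log axes) of AOC1, AOC2, LOX2 and JMT (top) and the clock genes CCA1, LHY, GI and TOC1 (bottom) in each 28 DAS pool, batch 2 left of batch 1, filled for pools A or C and open for pools B or D. AOC2 separates fully by batch (111 to 379 CPM against 413 to 820 CPM), and in batch 2 JMT and LHY are higher and AOC2 and GI lower in the filled point of every group.

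LOX3, LOX4, AOC3 and OPR3 had the largest ratios between the 2 pools of one group among the 10, in seedlings. In L3-1 at 15 DAS, pools A and B had 133 and 16.5 CPM of LOX3, 204 and 22.0 CPM of LOX4, 43.2 and 4.01 CPM of AOC3 and 153 and 25.02 CPM of OPR3, while JAR1 had 53.9 and 54.8 CPM. The largest ratio between pools was 8.09 for LOX3, 10.8 for AOC3 and 6.10 for OPR3, all in L3-1, and 12.6 for LOX4, in LerxC24. Ratios above 4 were found in 3 of 18 groups for LOX3, 4 for LOX4, 4 for AOC3 and 2 for OPR3 at 15 DAS and in none of the 14 groups at 28 DAS, where the highest were 3.53, 3.68, 3.10 and 2.87.

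Most genes differed little between pools: the median ratio over all tested genes was 1.21 at 28 DAS and 1.15 at 15 DAS. The median ratio over the 18 seedling groups was 1.96 for AOC3, more than in 99.1% of genes, 1.61 for LOX3 (96.8%), 1.54 for LOX4 (95.7%), 1.41 for AOC1 (91.7%), 1.32 for OPR3 (85.3%) and 1.08 for JAR1 (17.1%). Over the 14 groups at 28 DAS it was 1.81 for AOC3 (95.5%), 1.79 for LOX4 (95.2%) and 1.66 for JMT (92.6%). There LOX3 had 1.26 (60.1%), OPR3 1.13 (25.9%) and JAR1 1.12 (21.2%). The summed level of 6 genes known to respond to touch and handling was higher in the pool with more LOX3 and LOX4 in 13 of 18 seedling groups and 8 of 14 groups at 28 DAS, and lower there in 4 groups at either age. In the groups with the largest ratios it had 1115 CPM in pool A and 340 CPM in pool B of L3-1, 998 and 210 CPM in LerxC24, 1097 and 532 CPM in L3-2 and 796 and 274 CPM in S2-1, within a range of 79.7 to 1115 CPM and a median of 214 CPM over seedlings. The 4 seedling groups that ran the other way were L4-2, Ler of batch 2, C24 of batch 1 and the smallest C24. TCH3 and TCH4 weighed most in this sum, with medians of 167 and 35.9 CPM over seedlings. The medians of TCH2, ZAT10, ZAT12 and WRKY40 were 16.8, 5.90, 3.77 and 9.30 CPM. In L4-2 LOX4 was 4.36 times higher in pool B, while the sum was 763 CPM in pool A and 682 CPM in pool B. There TCH4 alone was higher in pool A (360 against 85.8 CPM), and TCH2, TCH3, ZAT10, ZAT12 and WRKY40 were higher in pool B. In Ler of batch 2 LOX3 was 2.02 times higher in pool D, while the sum was 570 CPM in pool C and 147 CPM in pool D. At 28 DAS the sum was highest in pool B of L2-2, with 2292 CPM against 665 CPM in pool A, while LOX3 was 3.53 times higher in pool A. In that group TCH2, TCH3 and TCH4 were higher in pool B. ZAT10, ZAT12 and WRKY40 were higher in pool A, by 1.20, 1.40 and 2.38 times. The part of handling in the LOX3, LOX4, AOC3 and OPR3 values was not tested.

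**Figure D5:**
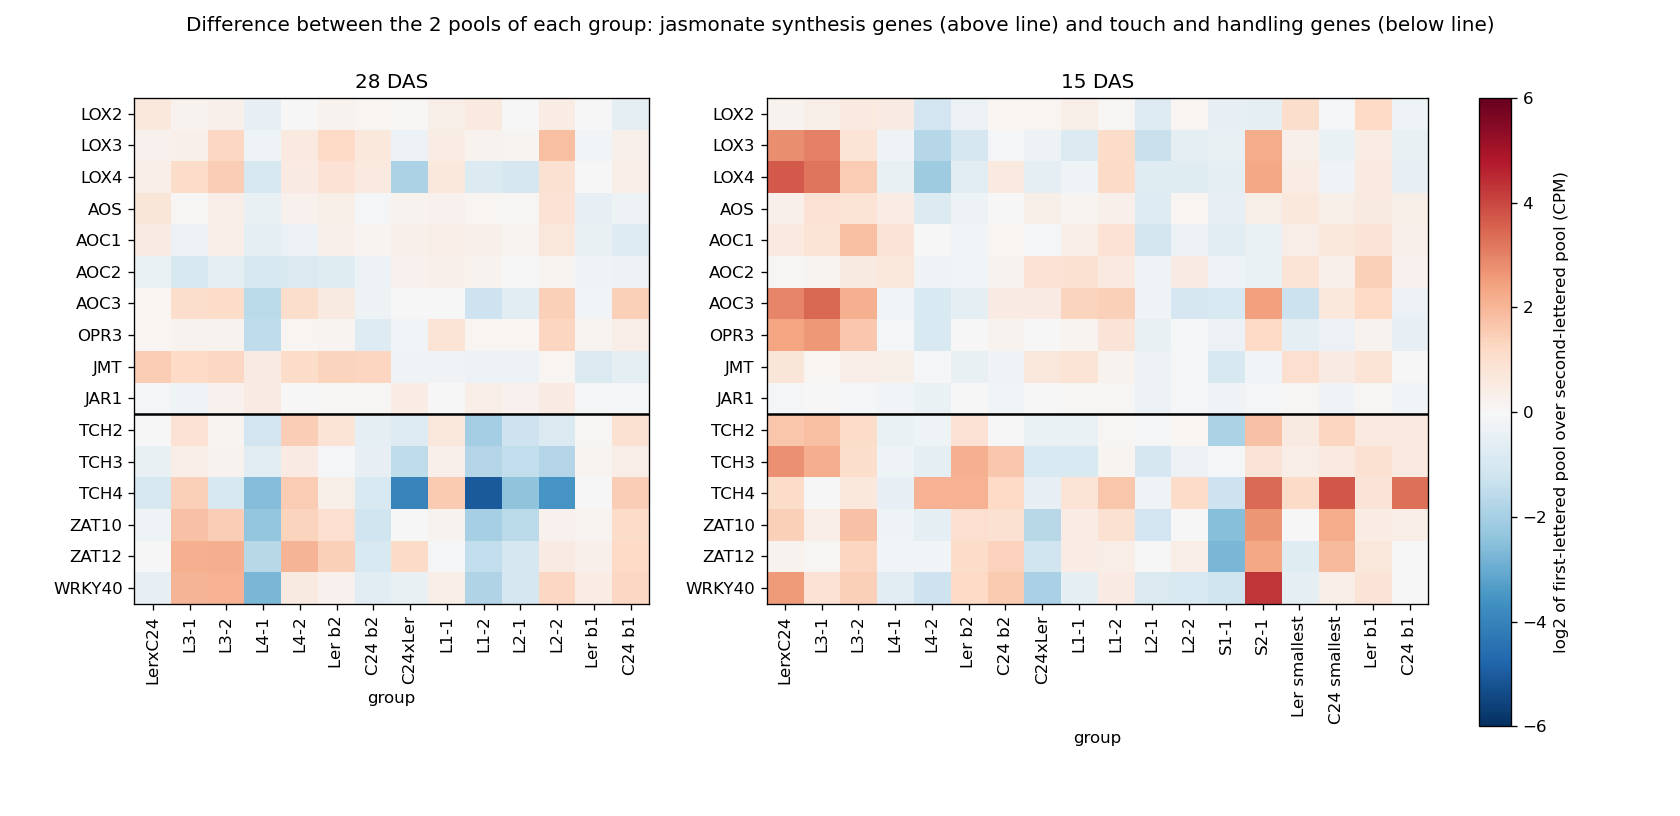
Log2 ratio of CPM in the first-lettered pool (A or C) over the second-lettered pool (B or D) of each group (columns) at 28 DAS (left) and 15 DAS (right), for the 10 jasmonate synthesis genes (above the line) and 6 touch and handling genes (below it), red where the first-lettered pool is higher and blue where it is lower. The strong red of LOX3, LOX4, AOC3 and OPR3 stands in LerxC24 and L3-1 at 15 DAS (up to 12.6 times, LOX4 in LerxC24), with weaker red in S2-1 and L3-2, JMT is red in all 7 batch 2 groups at 28 DAS, and JAR1 is pale throughout.

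Genes whose group means followed those of an enzyme most closely over the 32 groups, after each age was centred on its own mean, are given by Pearson r as a description over groups that share batches, among 27651 genes. LOX2 was followed by AT4G27560 (r = 0.936), its chromosomal neighbour TCP16 (0.926, 1826 bases away) and LSU2 (0.899). AOS was followed by AT5G23820 (0.777), NAI2 (0.746) and AT1G52010 (0.744), OPR3 by its neighbour AT2G06060 (0.872, 1895 bases away), AT4G30350 (0.835) and AT1G80120 (0.819), and JMT by MSL10 (0.937), AT5G54130 (0.913) and AT5G17000 (0.912). Among the 10 themselves the highest r were 0.829 for LOX3 with LOX4, 0.827 for AOS with AOC1, 0.783 for AOC2 with JAR1 and 0.771 for AOC3 with OPR3. Next were 0.747 for LOX2 with AOC2, 0.723 for LOX3 with OPR3 and 0.706 for LOX4 with AOC3. LOX2 with LOX3 had r = -0.20 and LOX2 with LOX4 r = -0.31.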

How the data were processed

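RNA-seq libraries of 64 pools were analysed from raw counts per gene that the authors deposited, one table per age. Per the submitters' processing notes, FastQC and TAIR10 were used. Which programs mapped and counted the reads, and whether strand was used, is not given in the sources used here. Mapping to TAIR10, which is a Columbia genome, can lower counts of genes that differ in C24 or Ler. A combined count table with repeated column names and the authors' normalised tables were not used here.

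Counts were fitted with edgeR 4.0.16 in R 4.3.3 (limma 3.58.1): filterByExpr by group, TMM scaling, one group-means model per age with trended dispersion, quasi-likelihood F tests, two-sided, with Benjamini-Hochberg adjustment over all tested genes (27844 at 28 DAS, 30207 at 15 DAS) and a threshold of 0.05. Standard errors are log2 fold changes divided by the root of F. Each mid-parent library averaged one Ler and one C24 library of a batch, matched by letter after TMM scaling (27772 and 30089 genes tested). Ages were compared in one model of all libraries (30407 genes). CPM was computed with TMM effective sizes within an age, or over both ages where ages are compared. On data simulated for Ler against C24 at 15 DAS in batch 2, 33 of 100 changes of 2-fold and 100 of 100 of 4-fold were recovered among 29960 genes, with 7 false calls. Every simulated gene had the same coefficient of variation (0.177), and changes were planted only in genes above a floor of expected counts. LOX3, LOX4 and AOC3 vary more between seedling pools than most genes, so recovery of changes in them cannot be read from it.

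The biological coefficient of variation was 0.225 at 28 DAS and 0.177 at 15 DAS. Pools with the same letter order deviated together (correlation of deviations above 0.1) in all 21 pairs of groups of batch 2 at 28 DAS (0.515 to 0.762). This was taken as pairing there. They did so in 34 of 36, 13 of 21 and 14 of 21 pairs in batch 1 at 15 DAS, batch 2 at 15 DAS and batch 1 at 28 DAS. This was not taken as pairing, and the median correlations were 0.349, 0.173 and 0.266. All 10 genes are named whatever their values, and other genes are those called among 45 listed pathway genes, or the closest by Pearson r of log2(CPM + 1) for LOX2, AOS, OPR3 and JMT. The genes and lists were chosen with earlier results of these data known. DESeq2 1.42.0, its size factors, no filter, nuclear genes, only the groups compared, a replicate block (letter order within batch and age, centred), crossed or log-mean mid-parents and each library left out were the alternatives. Exchange of the batch 1 Ler pools for the smallest Ler seedlings, omission of the near-identical pair and the contrasts between ages were added after the data were seen. Gene names and sequences came from the RefSeq table of TAIR10.1, which matched 32565 of 33321 gene rows.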

Additional observations from a re-analysis of the deposited data

Results flagged for a closer look

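The distance of LOX2 in LerxC24 from the mean of its parents differed between the ages. The log2 difference was 0.64 at 28 DAS and -1.60 at 15 DAS, and the test of the difference between them gave 2.24 ± 0.43 (SE, edgeR, adjusted p = 0.0134). LerxC24 pools had 3820 and 2425 CPM at 28 DAS and 171 and 148 CPM at 15 DAS, and the call was lost in 10 of the fits that left out one library.

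The difference of AOS between Ler and C24 in batch 1 also differed between the ages. It was 0.50 at 28 DAS and -0.97 at 15 DAS, a difference of 1.48 ± 0.45 (edgeR, adjusted p = 0.0436; 5.78% of genes were called). AOS had 342 and 480 CPM in Ler and 258 and 322 CPM in C24 at 28 DAS, and 83.8 and 57.1 CPM in Ler and 155 and 122 CPM in C24 at 15 DAS. With the smallest Ler seedlings used instead, in a fit of only the groups compared, the AOS adjusted p was 0.136 and LOX4 was called (-1.79, adjusted p = 0.0336), and leaving out any one library lost the call (adjusted p 0.0766 to 0.311). In batch 2 the same difference was 0.61 (adjusted p = 0.546; 3.92% of genes were called, 0 of 10 here by edgeR, 1 at an unadjusted p below 0.05, DESeq2 1).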

How the results depend on the processing

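Of 52 calls among the 10 genes, 34 held in every setting, 18 were lost in at least one, and none changed sign. DESeq2 gave 2 calls where edgeR gave 0 for Ler against C24 in batch 1 at 15 DAS, LerxC24 against C24 at 28 DAS and L3-1 against the mid-parent at 15 DAS. It gave 1 for 0 in C24xLer against C24, LerxC24 against the mid-parent, the L lines of batch 2 and S2-1 (15 DAS), in the L lines of batch 1, L1-2 and the L lines of batch 2 against LerxC24 (28 DAS), and for the Ler minus C24 difference between ages in batch 2. It gave 2 for 1 in C24 between batches at 15 DAS and in the age differences of LerxC24 and of Ler in batch 1, 4 for 2 in Ler between batches at 28 DAS and 3 for 2 in C24. With a log-scale mid-parent 1 gene was called in LerxC24 (15 DAS), L lines of batch 1 and L1-2 (28 DAS), 2 in the L lines of batch 2 and in S2-1, and 3 in L3-1, where the count was 0. With the batch 2 mid-parent S1-1 had 2 calls and S2-1 had 1. Without a filter the call in C24xLer against Ler at 28 DAS was lost (0 for 1). With only the groups compared in the fit, Ler against C24 had 3 calls for 1 (batch 2, 15 DAS) and 2 for 1 (batch 1, 28 DAS), L4-1 had 4 for 0 (15 DAS), LerxC24 against Ler 1 for 2, Ler and C24 between batches at 28 DAS 1 for 2, and C24 between batches at 15 DAS, C24xLer against Ler and L1-1 at 28 DAS and the AOS age difference 0 for 1.

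With a replicate block the counts were 1 for 0 in Ler against C24 (batch 1, 15 DAS) and 2 for 1 (batch 2, 15 DAS), AOC2 being the added gene in both (-1.32, adjusted p = 0.00274, and -0.75, adjusted p = 0.0437), 2 for 0 in the L lines of batch 2, 1 for 0 in L3-1 at both ages, 2 for 1 in C24 between batches at 15 DAS, 1 for 0 and 2 for 1 in C24xLer against C24 and Ler at 28 DAS, 3 for 0 and 1 for 0 in LerxC24 against C24 and Ler at 28 DAS, 3 for 0 in the L lines against LerxC24 at 28 DAS, 4 for 2 in both C24 and Ler between batches at 28 DAS, and, between ages, 4 for 1 and 2 for 0 in Ler against C24 (batch 1, batch 2) and 2 for 1 in LerxC24. Outside batch 2 at 28 DAS not every pair of groups deviated together by letter, so pairing was not taken as shown, though batch 1 at 15 DAS came close (34 of 36 pairs). Crossed mid-parents, DESeq2 size factors, nuclear genes, the exchanged Ler pools and the near-identical pair moved no count.

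Leaving out one library gave 0 calls for LerxC24 against C24 (15 DAS), C24xLer against Ler (28 DAS) and C24 between batches (15 DAS), 0 to 1 for Ler against C24 (both batches and ages), LerxC24 against Ler, L4-2 and the L lines of batch 2 (15 DAS), LerxC24 against C24, L1-1 and C24 between batches (28 DAS) and the 2 called age differences, and 0 to 2 for L3-1 (15 DAS) and Ler between batches (28 DAS). Ages in C24, Ler and F1 had 8 to 10 calls. Leaving out libraries was not run for ages in the L lines. The causes were not tested. With 2 pools a group, changes of 2-fold are often missed. Of the 10 genes, LOX3, LOX4 and AOC3 vary most between pools in seedlings, and AOC3, LOX4 and JMT at 28 DAS, by the median ratio.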
